A study of Mus musculus with 2 samples.

Results

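Shared Hnf4a regions at gene ends are places within 1 kb of the start or end of a protein-coding gene where both replicates of an Hnf4a binding map had a peak summit. They were chosen by the measured summit positions: summits of both lists on chromosomes 1 to 19 and X were chained when neighbours lay no more than 100 bp apart, chains with a summit of each replicate were kept, and the midpoint of each chain was placed against the genes of RefSeq (GRCm38.p6). The rule found 1701 such regions among 9179 shared regions (18.5%, 95% exact binomial interval 17.7 to 19.3), out of 36155 regions in the pooled lists. Of the other shared regions, 3679 lay inside genes, 846 lay outside genes at 1 to 10 kb, and 2953 lay farther out. That summits of both replicates stand there, and that they stand near gene ends, was the basis of the choice and is not a result.

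The study mapped Hnf4a in iHepCs, hepatocyte-like cells made by retroviral expression of Foxa2 and Hnf4a in mouse embryonic fibroblasts. The labels give strain C57BL/6J, genotype WT, tissue Embryo and cell type Fibroblast, which describe the cells before reprogramming. In chromatin integration labelling (ChIL-seq), DNA near an antibody-bound protein is marked by Tn5 transposase with a T7 promoter and is then copied by transcription inside the fixed cell. There was 1 group of 2 samples, both treated alike: 10000 cells per well, 1% formaldehyde for 5 min, 20 h of in situ transcription, and medium with 100 nM dexamethasone, 20 ng/ml hepatocyte growth factor and 20 ng/ml epidermal growth factor. The peak names place both libraries in 1 lot of cells, so their spread may be smaller than that between separate reprogramming experiments. Introduced Hnf4a and Hnf4a from the cells' own gene cannot be told apart by the antibody. No control samples were analysed here. The replicates held 21283 and 24097 summits, each a single base with the authors' score, the -log10 of its q-value. The median score was 7.32 in replicate 1 and 6.67 in replicate 2. Summit lists give no expression, so the identity of the cells could not be checked against their markers.

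Hnf4a is a nuclear receptor that binds DNA as a homodimer, typically at a direct repeat of its half-site spaced by 1 base, and it is a central regulator of hepatocyte genes. Promoters of broadly expressed genes are often CpG islands, where binding sites of SP/KLF, NF-Y, ETS, NRF1 and YY1 factors are common. Many such genes sit head to head, so that a single stretch of DNA serves as the promoter of both.

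The sequences that follow show what lay under the midpoints. All are from the RefSeq promoter table of GRCm38.p6, are written 5′ to 3′ on the strand named, and do not reach into any gene of the gene table. The first set shows promoters of member regions that hold an HNF4 motif, which is in capitals. Cyp2c70 lies at chr19:40187317-40187468 (minus strand), Alg14 at chr3:121291661-121291711 (plus strand) and Cyp3a16 at chr5:145469789-145469965 (minus strand). In each, the midpoint of the region is base 26 of the stretch.
Cyp2c70: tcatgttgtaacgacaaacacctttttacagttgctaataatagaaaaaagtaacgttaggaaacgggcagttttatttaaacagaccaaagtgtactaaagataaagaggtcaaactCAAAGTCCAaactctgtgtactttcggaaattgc
Alg14: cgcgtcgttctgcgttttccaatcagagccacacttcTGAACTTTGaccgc
Cyp3a16: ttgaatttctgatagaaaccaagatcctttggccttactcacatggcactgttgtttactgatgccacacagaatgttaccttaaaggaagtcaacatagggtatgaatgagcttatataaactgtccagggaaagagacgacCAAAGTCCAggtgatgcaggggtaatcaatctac

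The second set shows the promoters of high-scored regions and of head-to-head pairs, with SP/KLF, NF-Y, ETS and HNF4 motifs in capitals. Only the SP/KLF motif, GGGCGG or its reverse complement CCGCCC, was found in these stretches. Ntmt1 lies at chr2:30807718-30807944 (plus strand) with the midpoint at base 11 and 3 SP/KLF motifs, and Gpr155 at chr2:73386522-73386730 (minus strand) with the midpoint at base 62 and 5 motifs. The DNA between the starts of Casc1 and Etfrf1 lies at chr6:145211018-145211133 (plus strand) with the midpoint at base 13 and 3 motifs. The stretch between Chchd4 and Tmem43 lies at chr6:91473457-91473706 (plus strand) with the midpoint at base 192 and 1 motif.
Ntmt1: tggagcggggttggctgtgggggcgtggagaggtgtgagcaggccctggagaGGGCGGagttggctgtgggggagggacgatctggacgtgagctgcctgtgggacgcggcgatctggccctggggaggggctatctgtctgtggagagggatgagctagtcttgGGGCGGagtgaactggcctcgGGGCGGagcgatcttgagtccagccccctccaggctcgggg
Gpr155: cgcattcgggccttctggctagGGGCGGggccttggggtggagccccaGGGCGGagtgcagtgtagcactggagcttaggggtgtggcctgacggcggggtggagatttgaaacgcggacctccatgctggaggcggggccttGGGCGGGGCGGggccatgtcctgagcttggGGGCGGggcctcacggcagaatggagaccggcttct
Casc1-Etfrf1: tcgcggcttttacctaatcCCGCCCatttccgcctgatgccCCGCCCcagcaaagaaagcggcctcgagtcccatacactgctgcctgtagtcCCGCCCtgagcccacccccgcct
Chchd4-Tmem43: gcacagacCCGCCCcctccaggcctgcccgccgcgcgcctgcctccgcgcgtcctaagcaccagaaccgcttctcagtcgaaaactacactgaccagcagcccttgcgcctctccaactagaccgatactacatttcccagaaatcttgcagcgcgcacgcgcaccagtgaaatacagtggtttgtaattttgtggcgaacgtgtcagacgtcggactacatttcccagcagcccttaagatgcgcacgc

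The regions lay at gene starts far more often than at the 3′ ends of genes. Strand was taken from the promoter table, which covered 17274 of 21631 protein-coding genes (79.9%) and 0 of 511 on chromosome 18. Of the 1701 regions, 1281 were nearest a start, 117 were nearest a 3′ end and 303 were nearest a gene without strand. Over the 1398 with strand, 91.6% were nearest a start (95% exact interval 90.1 to 93.0). Among genes longer than 2 kb, whose ends are well apart, the share was 91.8%. Summits of 1 replicate without a counterpart showed a like preference: 89.2% of those at gene ends in replicate 1 and 85.7% in replicate 2 were nearest a start.

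At starts, the midpoints formed a peak just upstream. Upstream midpoints numbered 897 (70.0%), downstream ones 383, and 1 lay on the start base itself. The median signed distance was -99 bp (negative is upstream), with quartiles at -182 and 44 bp. The bin from -200 to -100 bp held 365 regions, or 28.5% of the 1281, and the next bin up to the start held 264. The first bin inside the gene held 114. A gene start here is the outermost one of all annotated transcripts. Against the transcript starts of the promoter table, of which 1 lay within 1 kb of 1259 members, the median was -134 bp with quartiles at -220 and -48.5 bp, and 80.7% were upstream. The peak thus lay upstream by both sets of starts.

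The 117 regions nearest a 3′ end showed no such sharp peak. Their median was 80 bp downstream of the end with quartiles at -384 and 420 bp. The fullest 100 bp bin, just past the end, held 14 regions, against 5 in the bin before the end. Within 250 bp of the end, 27 lay downstream and 11 upstream. Only 14 of them lay within 1 kb of a transcript start in the promoter table. Over all members, the median distance to the nearest end was 161 bp, and 1173 (69.0%) lay within 250 bp. The 1 kb limit cut a thin tail: 45 members lay beyond 900 bp and 41 shared regions lay in the next 100 bp outside it.

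**Figure D1:**
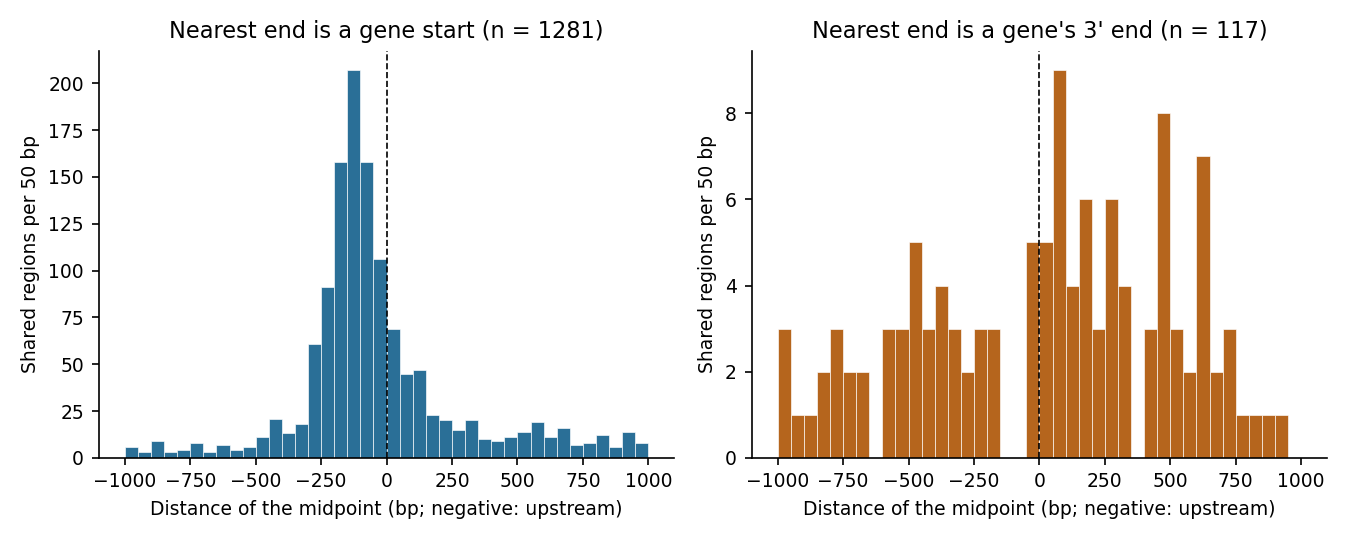
Distance of region midpoints from the nearest gene start (left, 1281 regions) and the nearest 3′ end (right, 117 regions), in 50 bp bins with negative values upstream; bars give the number of regions and the vertical axes differ. At starts the bars rise to a peak just upstream, with a median of -99 bp. At 3′ ends they are spread over the whole window, with somewhat more just past the end.

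Just inside the limit were the regions of Srl at 1000 bp (18.8 in replicate 1 and 19.4 in replicate 2), Vash2 at 1000 bp (3.16 and 3.12) and Ccnd2, which encodes cyclin D2, at 999 bp (11.2 and 13.2). Just outside were Tln1, which encodes talin, at 1007 bp (12.4 and 11.9), Gm52799 at 1012 bp (7.42 and 10.3) and Lmnb1, a lamin gene, at 1014 bp (4.38 and 5.57). The scores on either side of the limit overlapped. At the other extreme, the midpoint of Ccdc61 was the start base itself (8.14 and 10.4). Those of Urb1 (19.4 and 54.8), Phykpl (7.79 and 14.1), Rab11b (14.6 and 7.37), Tmed5 (8.95 and 7.05) and Daxx (8.85 and 5.58) lay 1 bp from a start. Rab11b encodes a GTPase of recycling endosomes, and Daxx a histone chaperone. At 3′ ends the nearest were Ccdc186 at 4 bp (5.04 and 5.33), Rnf167 at 7 bp (9.25 and 5.25) and Map7, a microtubule-binding protein gene, at 8 bp (27.4 and 13.9). The 6 regions on or beside a start scored between 5.58 and 54.8 over both lists, and the 3 at 3′ ends between 5.04 and 27.4.

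The 12 best-ranked regions lay at genes of varied roles. None of these genes was on the plasma protein or hepatocyte transcription factor lists. Those lists held only 3 and 1 of the 1911 genes with a region, so their absence among the best 12 says little. The region best ranked by the worse of its 2 ranks lay 217 bp upstream of Ntmt1, which encodes a methyltransferase of protein N-termini, at chr2:30807725-30807731, and scored 69.7 in replicate 1 and 71.7 in replicate 2. Rxylt1, an enzyme of dystroglycan glycosylation, had a region 99 bp upstream at chr10:122097460-122097470 (79.5 and 67.4). Both replicates thus ranked them among their top 30 shared regions. Tmem87b, a Golgi membrane protein gene, had one 237 bp upstream (62.5 and 73.7), and Gpr155 one 148 bp upstream (61.7 and 71.1), where both summits were 1 bp apart. Zfp78, a zinc finger gene, had the highest replicate 1 score of all members, 93.3, with 59.4 in replicate 2, at 143 bp inside the gene.

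The other 7 of the best 12 scored between 39.2 and 70.1 over both lists. Ifi27l2b (54.0 and 70.1), Gse1 (63.9 and 56.0) and Abhd17a, a depalmitoylase gene (69.8 and 40.2), had regions at 102, 278 and 130 bp. Larp1b, an RNA-binding protein gene, had one 86 bp upstream (40.5 and 55.7). Chromosome 18, where no gene has strand here, held the remaining 3: Tnfaip8, a regulator of cell death, at 32 bp (52.0 and 44.0), Garem1, an adaptor of EGF receptor signalling, at 270 bp (43.0 and 64.0), and Afg3l2, a mitochondrial protease gene, at 170 bp (39.2 and 42.6). No member reached the scores of the strongest shared regions elsewhere, which rose to 1799 and 2028 far from genes.

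The regions as a set scored about as high as other shared regions. Their scores ran from 2.89 to 93.3 in replicate 1 with a median of 10.2, and from 2.79 to 73.7 in replicate 2 with a median of 9.78. The other 7478 shared regions had medians of 9.86 and 9.54. Within genes the medians were 9.83 and 9.36, and beyond 10 kb they were 9.91 and 9.79. Regions 1 to 250 bp upstream of a start had medians of 10.9 and 9.93, against 9.15 and 9.53 at 3′ ends. These differences are small beside the interquartile range of the members, 7.25 to 15.0 in replicate 1 and 7.14 to 14.7 in replicate 2. Of the 100 best-ranked shared regions 17 were members, and of the best 1000, 199, close to their 18.5% of all shared regions.

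The replicates ordered the members alike to a moderate degree. Over members, the scores gave a Spearman's rho of 0.55 and, as log10 values, a Pearson's r of 0.615, against 0.593 and 0.67 over the other shared regions; the regions share their libraries, so these are descriptions. The median log2 ratio of replicate 2 over replicate 1 was -0.02 (SD 0.68), and 85.7% of members lay within 2-fold, against 87.2% of the others. Both summits lay a median of 31 bp apart, and in 31 members they were the same base. Among these 31 was Ifngr1, which encodes a chain of the interferon gamma receptor, 78 bp upstream of its start (41.4 and 32.6), and Tspan17 (33.6 and 34.0), both chosen after their values were seen. The largest disagreements were at Zfp414 (4.31 in replicate 1 and 22.0 in replicate 2), Sertad3 (3.33 and 15.3) and Foxo4 (3.38 and 15.4) on one side. Ifnar2 (18.6 and 4.01), Surf4 (32.8 and 7.66) and Far1 (17.6 and 4.18) stood on the other. At these 6 the scores differed by 4.21 to 5.09 times. The widest members were Aph1a, a gamma-secretase subunit gene, with summits over 147 bp (4.38 and 6.03), and Zfp408 with 101 bp (14.4 and 11.7).

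**Figure D2:**
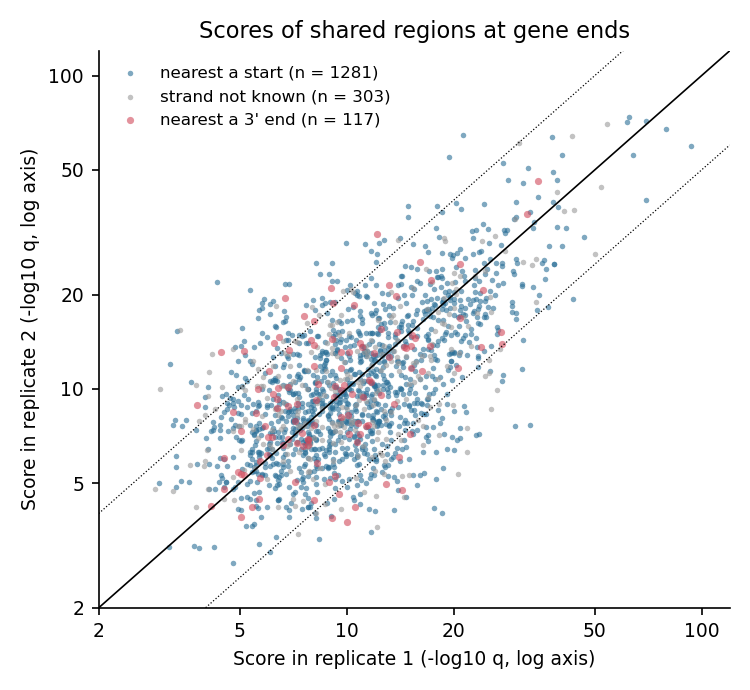
Scores (-log10 q) of the 1701 regions in replicate 1 and replicate 2 on log axes, by the gene end they are nearest; the solid line marks equal scores and the dotted lines a 2-fold difference. The points scatter around equality with 85.7% inside the dotted lines, and regions at 3′ ends lie within the cloud of those at starts.

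The share of summits with a counterpart in the other replicate varied by place. Counterparts and distance from genes are what the rule used, so these shares are a description only. In replicate 1, 47.6% of summits at starts were shared, 45.6% at gene ends without strand, 40.6% at 3′ ends, 41.9% inside genes, 42.8% at 1 to 10 kb outside and 43.0% farther out. In replicate 2 these shares were 49.1%, 43.4%, 34.5%, 36.5%, 37.0% and 36.7%. Among replicate 1 summits from the median score up, 61.6% at starts, 62.4% inside genes and 63.2% beyond 10 kb were shared. In replicate 2 these shares were 62.1%, 57.11% and 59.15%, so the replicates differed there. Below the median score, starts had the higher share in both: 28.18%, 22.96% and 23.97% in replicate 1, and 27.21%, 17.46% and 16.23% in replicate 2.

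The regions touched 1911 protein-coding genes, 8.83% of the 21631 in the table. Of the genes with strand, 1423 (8.24%) had a region at the start and 175 (1.01%) at the 3′ end. A single gene lay within 1 kb of 1447 regions, 2 genes within 1 kb of 253, and 3 genes within 1 kb of 1 region. Most genes had a single region, and 43 had more. Tmem43, a nuclear envelope protein gene, had 3. The region 59 bp before its start scored 24.2 in replicate 1 and 33.5 in replicate 2, a region 77 bp past its 3′ end scored 32.2 and 36.2, and one at 765 bp past it scored 7.60 and 7.64. At Cdnf, 1 region lay upstream at 166 bp (13.7 and 15.0) and 1 past the 3′ end at 896 bp (7.79 and 6.85). Sec16a, a scaffold gene of ER exit sites, had both of its regions inside the gene, at 817 bp (40.4 and 28.5) and 346 bp (8.54 and 9.97) from the start.

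The strongest regions nearest a 3′ end were chosen after their values were seen. The best lay inside Lars2, the mitochondrial leucyl-tRNA synthetase gene, 690 bp before its 3′ end (34.5 in replicate 1 and 46.1 in replicate 2). The Tmem43 region at 77 bp followed, which also lies within 1 kb of Xpc, a DNA repair gene. Hspb8, a small heat shock protein gene, had a region 259 bp past its end (24.2 and 20.8), and Gpr180 one 349 bp before its end (20.9 and 25.1). Only 4 of the 117 regions at 3′ ends scored 20 or more in both replicates (3.42%), against 87 of the 1281 at starts (6.79%).

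When each gene was counted on its own, genes in head-to-head pairs had such a region at the start more often than other genes. The table held 901 pairs of opposite-strand genes with starts no more than 1 kb apart, and 129 of them (14.3%) had a region within 1 kb of both starts; 129 regions, or 7.58% of all members, served these pairs. Counted by gene, 265 of 1791 genes in such pairs (14.8%) had a region at the start, against 1158 of 15483 other genes (7.48%). A gene in a pair can count through a region nearer its partner, which by itself raises the share by gene. By pair the share with a region at either start was 15.2%, but a pair has more starts than a single gene. Whether pairs had more regions than separate starts would have was not tested. Scores at pairs were like those at other starts, with medians of 10.8 and 9.97 against 10.5 and 9.70. Of tail-to-tail pairs, 3 of 726 pairs (0.413%) had a region within 1 kb of both 3′ ends. They were Rnf167 with Pfn1, the profilin gene (9.25 and 5.25), 2310039H08Rik with Rpl7l1 (12.5 and 9.53) and 2700081O15Rik with Rtn3 (5.05 and 7.34).

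Where the 5′ ends of a pair did not overlap, the midpoint often lay outside the gap. Of 86 regions at such pairs, 31 (36.0%) lay between both starts. The median gap between starts was 96.5 bp at these 86 and 101 bp over all 581 pairs without overlap. Over all 130 combinations of a region and a pair, those with overlapping 5′ ends included, the midpoint was nearer the left gene in 70 and nearer the right gene in 60.

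**Figure D3:**
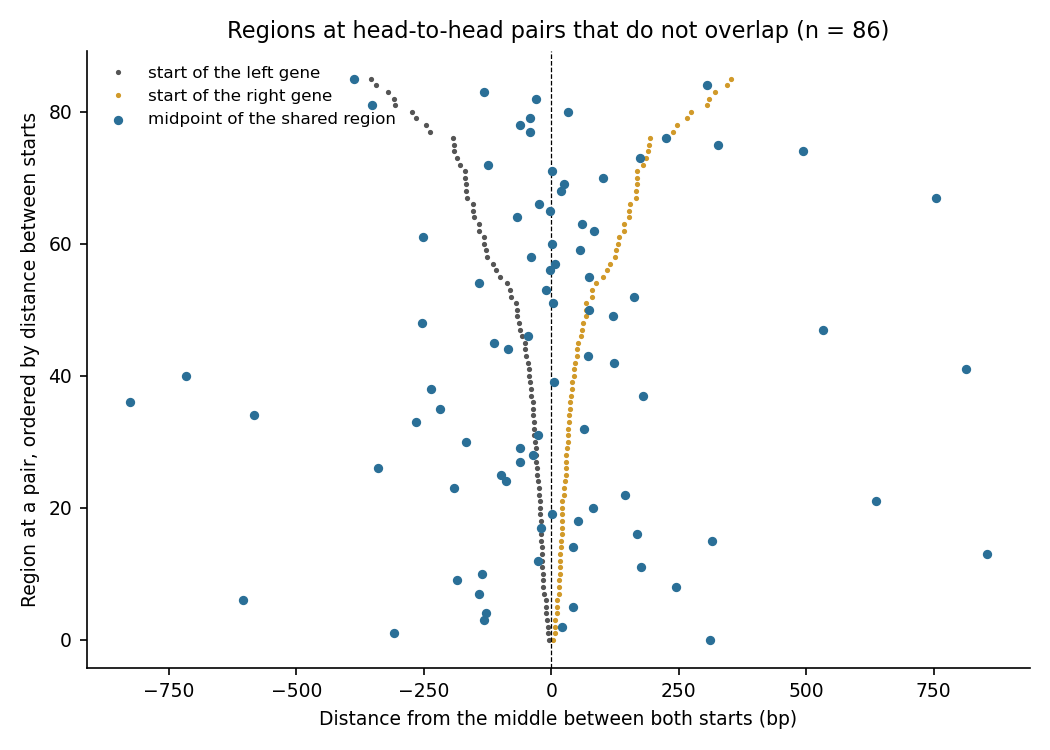
Region midpoints (blue) at 86 head-to-head pairs that do not overlap, with the starts of the left gene (grey) and the right gene (gold), ordered by the distance between starts; the horizontal axis is the distance in bp from the middle between both starts. Midpoints lie between the starts in 31 cases and to either side of them in the rest.

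The best-ranked pair was Gucd1 with Snrpd3, which encodes a core protein of spliceosomal snRNPs. Its region scored 30.0 in replicate 1 and 39.6 in replicate 2 and lay 618 bp from the start of Snrpd3, inside Gucd1. Casc1 and Etfrf1, the latter a regulatory factor of mitochondrial electron transfer flavoprotein, have starts 117 bp apart, and the region lay between them, 13 bp from Casc1 (30.0 and 26.1). BC005624 and Usp20, a deubiquitinase gene, have starts 338 bp apart with the midpoint nearly central, 170 bp from the first and -168 bp from the second (35.9 and 25.7). Cbx5, which encodes the heterochromatin protein HP1 alpha, and Hnrnpa1, an RNA-binding protein gene, shared a region 296 bp inside Hnrnpa1 (36.5 and 24.1). Chchd4, a mitochondrial import factor gene, and Tmem43 had theirs 225 bp from Chchd4 (24.2 and 33.5). Fbxo44 and Fbxo2, neighbouring F-box genes of ubiquitin ligases, had one 14 bp inside Fbxo2 (31.1 and 21.6).

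By gene group, the share of genes with a region at either end ran from 33.9% for ER translocation and vesicle coats down to 0 of 1110 olfactory receptor genes. Against 8.83% of all protein-coding genes, 19 of 56 genes for ER translocation and vesicle coats had a region (33.9%). The best were Sec16a (40.4 in replicate 1 and 28.5 in replicate 2), Sec24c (20.0 and 19.3) and Trappc9 (16.8 and 17.99); the latter 2 encode parts of the COPII coat and of a vesicle tethering complex. Mediator, the bridge between transcription factors and RNA polymerase II, had regions at 9 of 30 subunit genes (30.0%), with Med7 (17.9 and 19.5), Med6 (24.6 and 17.0) and Med29 (20.2 and 15.2) first, each 91 to 151 bp upstream of the start. Splicing genes followed with 14 of 58 (24.1%), including Snrpd2 (19.2 and 21.8) and Lsm8 (18.6 and 18.9). Cyclins and replication genes had 23 of 104 (22.1%), led by the helicase gene Mcm9 (27.6 and 21.8), and DNA repair genes 12 of 55 (21.8%), led by Fance (10.8 and 19.8). At starts alone, over genes with strand, the order differed. Mediator then had 8 of 26 (30.8%), splicing 13 of 49 (26.5%) and ER translocation and vesicle coats 12 of 48. In the last list, Sec14l2, Sec62 and Sec22a counted through a 3′ end. It also counted Sec14l2 and Sec14l5, whose place in this list was not checked. The lists were chosen with results of these data known, and genes of a pair can share 1 region.

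Mitochondrial and protein turnover genes lay between. Proteasome genes had regions at 9 of 49 (18.4%), with Psmd8 (18.1 and 14.2) and Psmd3 (24.6 and 11.0). Respiratory chain genes had 17 of 105 (16.2%), with Uqcrq, a complex III subunit, highest (49.9 and 27.0), and mitochondrial ribosomal proteins 12 of 78 (15.4%). The region of Mrpl36 also served Ndufs6, a complex I subunit, at 53 bp (9.54 and 9.97 for both). Aminoacyl-tRNA synthetases had 5 of 34 (14.7%), translation initiation genes 8 of 55 (14.5%) and cytosolic ribosomal protein genes 11 of 89 (12.4%). RNA polymerase subunits and general factors had 9 of 75, with Polr2g at 22.9 in both replicates, and the ubiquitin pathway 15 of 128 (11.7%). Near the share of all genes were zinc finger genes with 41 of 397 (10.3%) and solute carriers with 34 of 375 (9.07%); below it were histones with 7 of 101 (6.93%).

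The lists of cell type genes are short, so their counts are small and are given beside the 8.83% of all genes. Plasma protein genes had 3 of 28 (10.7%), near that share, and strand placed the Rbp4 region 4 bp inside the gene and the Serpina1a region 101 bp upstream. Most of the listed genes had none, among them Alb, Ttr, Apoa1 and Fgb. The list does not hold every gene of its kind, and no share was computed over a wider set. The genes named next therefore do not change the share above. Chosen after their values were seen, Serpina1b, a close relative of Serpina1a, had a region 181 bp upstream (24.3 in replicate 1 and 16.9 in replicate 2), Itih2 one 144 bp upstream (11.7 and 15.1) and Hc, the complement C5 gene, one 803 bp upstream (19.5 and 20.5). A region 23 bp from an end of Cfb, the complement factor B gene, also lay within 1 kb of C2 (22.0 and 15.9). Among 23 hepatocyte transcription factor genes only Esrra, an estrogen-related receptor gene, had a region (4.35%), 64 bp inside the gene (12.4 in replicate 1 and 8.64 in replicate 2). The replicates differed on this list. With all summits of 1 replicate, 1 of the 23 genes had a region in replicate 1 (4.35%) and 6 in replicate 2 (26.1%). The shares of all genes were then 18.4% and 18.2%. Cytochrome P450 genes had 6 of 97 (6.19%). They included Cyp2c70, a bile acid hydroxylase of rodents, 157 bp upstream of the start (27.2 and 28.8), and Cyp1a1, the dioxin-inducible enzyme, 704 bp inside the gene (25.4 and 20.6). Of 22 fibroblast and mesenchyme genes, S100a4 had a shared region (5.22 and 5.77). With all summits of 1 replicate, 1 of the 22 had a region in replicate 1 and 5 in replicate 2. Keratin genes had 2 of 53 (3.77%), namely Krt10 (17.3 and 22.3) and Krt19 (7.93 and 13.1), and Krt19 was the 1 of 5 cholangiocyte markers with a region. Of 5 intestinal markers, Cdx2, a homeobox regulator of the intestine, had one 18 bp upstream of the start (12.8 and 8.08). None of 5 blood and endothelium markers, 4 neuron markers or 1110 olfactory receptor genes had one.

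**Figure D4:**
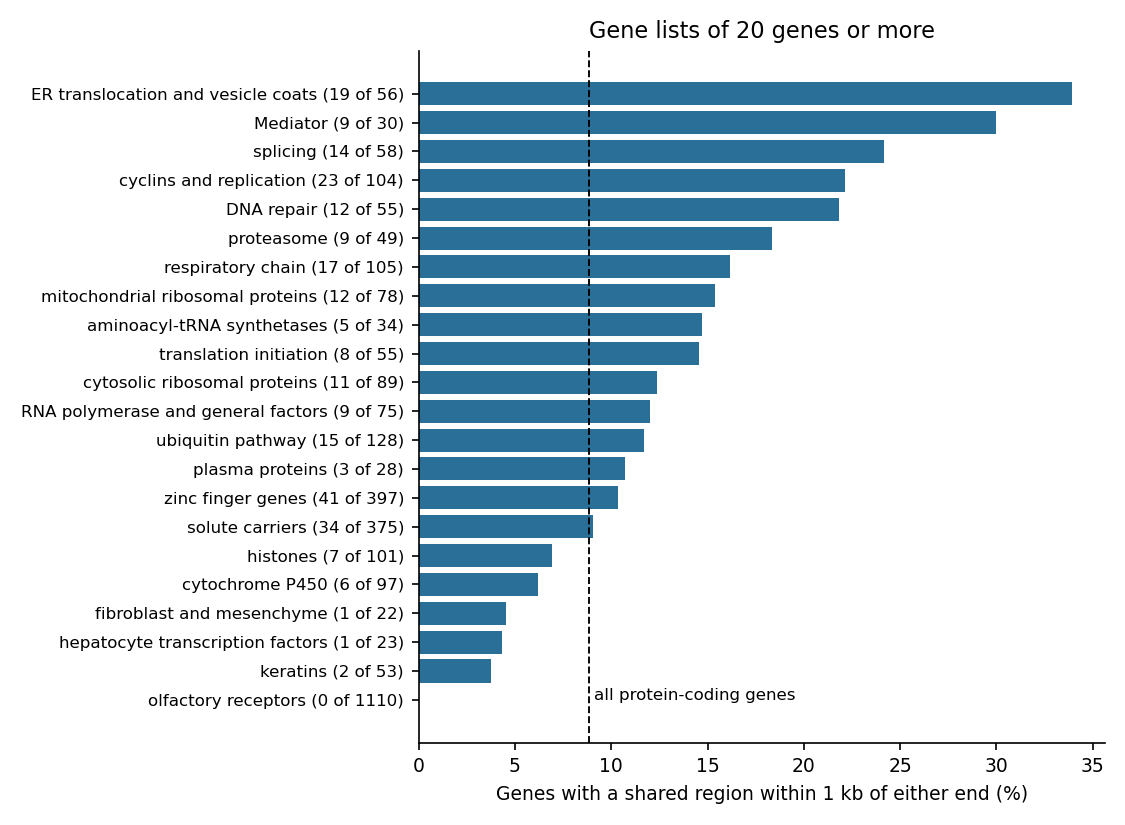
Share of genes with a shared region within 1 kb of either end, for the gene lists of 20 genes or more, with the number of genes in brackets; the dashed line marks the 8.83% of all protein-coding genes. Vesicle coat, Mediator and splicing genes lie farthest to the right of the line, and hepatocyte transcription factors, keratins and olfactory receptors lie to its left.

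The promoters under these regions were mostly CpG-rich. In the promoter table, which gives 250 bases before and 50 after a transcript start, 958 of 21045 windows of protein-coding genes held the midpoint of a member. They belonged to 911 genes and held 855 regions. Their median GC content was 60.3%, against 56.7% over all windows, and 83.7% of them had a CpG observed-over-expected ratio of at least 0.6, against 48.1%. Windows with summits of 1 replicate alone were nearly as CpG-rich, with 80.9% for replicate 1 and 82.4% for replicate 2. Windows of 1 gene can overlap, so the counts are not independent.

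The HNF4 motif was in few of these windows, which held 855 of the 1701 members. Sequence outside the windows was not searched, so the other members are not covered. The motif was searched on both strands as CAAAGTCCA, CAAAGTTCA or CAAAGGTCA. It was found in 7 of 958 windows (0.731%, 95% exact interval 0.294 to 1.50), while 1.26% of all windows and 1.28% of windows with no summit of either replicate held it. Windows with summits of replicate 1 alone held it in 1.29% of cases and those of replicate 2 alone in 1.08%. A looser form, CAAAGTCCA with at most 1 base changed, was in 6.16% of windows with a region and in 7.91% of all. That form includes CAAAGTTCA but not CAAAGGTCA, which differs at more than 1 base. A window without these letters can still hold other forms of the site, and nothing about the protein follows from their absence. The Alg14 motif, TGAACTTTG, is CAAAGTTCA read on the other strand.

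The 7 windows with an HNF4 motif included 2 cytochrome P450 genes. At Cyp2c70, whose sequence is given above, the motif started at position -64 from the transcript start and lay 97 bp from the midpoint (27.2 in replicate 1 and 28.8 in replicate 2). Zfp28 had it 42 bp from the midpoint (14.8 and 38.5), and Alg14, a gene of protein N-glycosylation, 16 bp from it (19.7 and 13.0), the closest of the 7. C1rl, a complement C1r-like protease gene, had it at 86 bp (8.50 and 11.4), and Epm2aip1 at 117 bp (13.9 and 7.20). The weakest were Cyp3a16, of a drug-metabolising family, at 122 bp (6.98 and 4.31), and BC049715 at 139 bp (5.97 and 4.21). Cyp2c70 was the highest of the 7 in replicate 1, and Zfp28 in replicate 2.

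The other motifs were also searched on both strands, and all but C/EBP were in a larger share of windows with a region than HNF4. Their spellings differ in length, and a short spelling turns up more often by itself. Shares of different motifs can therefore not be set against each other, and each is given beside its share of all windows. No spelling contains that of another motif, though neighbouring matches can share edge letters. The SP/KLF motif GGGCGG was in 77.9% of windows with a region against 46.7% of all windows, and the NF-Y motif CCAAT was in 54.4% against 38.5%. The ETS motif CCGGAAG was in 22.2% of windows with a region against 11.7%. YY1 and NRF1 were also found in larger shares: YY1, spelled AAGATGGCG, in 4.49% against 1.84%, and NRF1, spelled GCGCATGCG, in 4.59% against 2.37%. FOXA, the motif family of the other introduced factor, was searched as TGTTTAC or TGTTTGC and was in 5.64% of windows with a region against 7.48% of all. The AP-1 motif TGAGTCA was in 3.55% against 4.69%, and the TATA motif TATAAA in 5.32% against 12.7%. The remaining motifs differed less: the E-box CACGTG was in 8.87% against 7.91%, and the cyclic AMP response element TGACGTCA in 1.88% against 2.26%. The C/EBP motif TTGCGCAA was in 0.313% against 0.223%, and the ZBTB33 motif TCTCGCGAG in 0.940% against 0.974%. Among windows of the best-ranked 25% of members, SP/KLF reached 85.2% and NF-Y 56.4%. Windows with summits of replicate 1 alone held SP/KLF in 71.4%, NF-Y in 53.1% and ETS in 19.5% of cases, and those of replicate 2 alone in 67.1%, 47.8% and 23.4%, also above the shares of all windows.

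Within CpG-rich windows the shares lay closer together for SP/KLF and ETS, and farther apart for NF-Y. Windows were split at the ratio of 0.6 after the data were seen. Among CpG-rich windows, SP/KLF was in 81.9% of those with a region (95% exact interval 79.1 to 84.5) and 73.4% of those with no summit (72.4 to 74.4). NF-Y was in 54.5% (51.0 to 58.0) against 32.2% (31.2 to 33.3), the widest gap among the 13 motifs in CpG-rich windows, and ETS in 23.3% against 18.8%. HNF4 was in 0.374% against 0.586%. FOXA was in 5.11% (3.69 to 6.87) against 4.66% (4.2 to 5.15), and the E-box in 8.85% against 11.9%. For FOXA and the E-box the direction was thus the reverse of that against all windows. NRF1, in 5.11% against 4.41%, and TATA, in 4.86% against 5.83%, lay closer together than against all windows. Among the other windows, 156 held a region. There SP/KLF was in 57.1% against 19.7% of windows with no summit, ETS in 16.7% against 3.73%, NF-Y in 53.8% against 39.6%, AP-1 in 12.2% against 6.68% and HNF4 in 2.56% (0.703 to 6.44) against 1.81% (1.56 to 2.08). The split did not match composition. In these other windows median GC content was 55.7% against 49.3% and the median CpG ratio 0.489 against 0.232. Among CpG-rich windows they were 61.7% against 65.3% and 0.834 against 0.838. What share of the differences goes with composition was not tested. With no summit, NF-Y was less frequent in CpG-rich windows (32.2%) than in the others (39.6%). The motif matches describe the windows, and whether these factors were bound there was not measured.

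**Figure D5:**
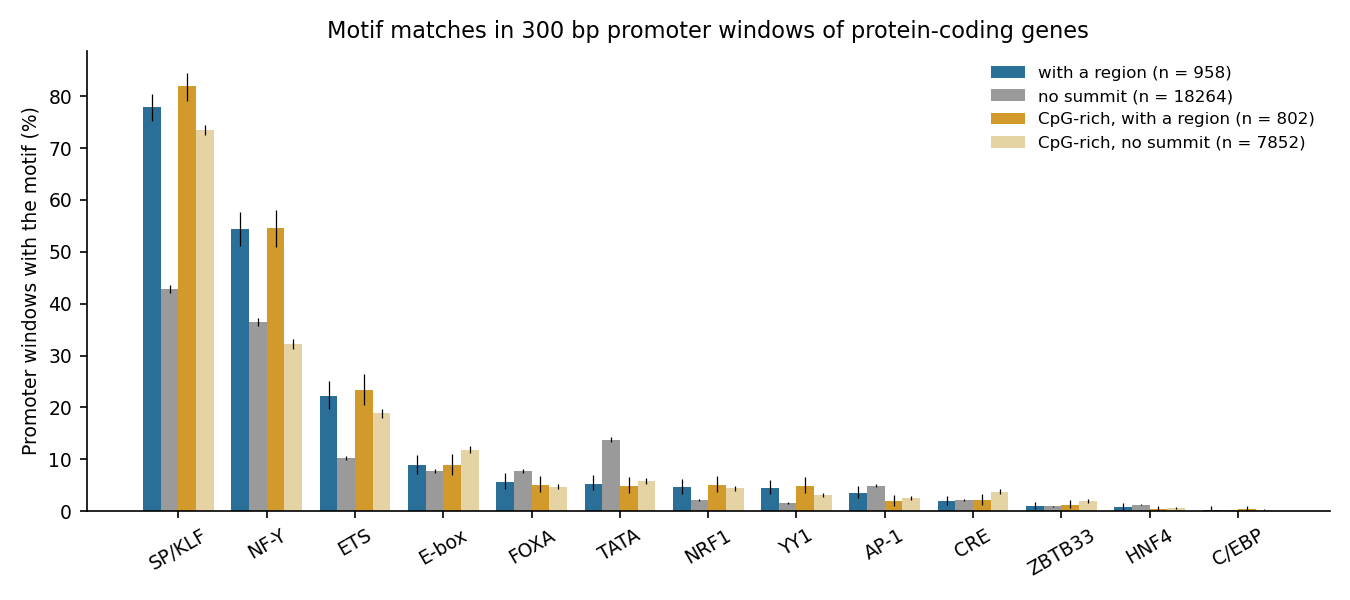
Share of promoter windows that hold each motif, for windows with a region midpoint (blue), windows with no summit (grey) and the same split among CpG-rich windows (gold and pale); error bars are 95% exact binomial intervals. SP/KLF and NF-Y, with short spellings, are in 77.9% and 54.4% of windows with a region, and HNF4, with longer ones, is in 0.731%. Heights of different motifs are not comparable, since short spellings turn up more often by themselves.

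Chromosome X had the lowest share of genes with a region. There 26 of 966 protein-coding genes had one (2.69%), against 7.72% to 11.3% on the autosomes. Of the shared regions on each chromosome, members made up 11.8% to 28.6% on the autosomes and 24 of 147 on X (16.3%). Foxo4, a forkhead factor gene, was 1 of the genes on X with a region.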

How the data were processed

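Per the submitters' processing notes, reads were processed with fastp 0.23.4, HISAT2 2.0.5 and MACS2 2.2.9.1 on mm10. The deposited lists give 1-bp summits called per library, with the -log10 q-value by the authors in column 5; a q threshold of 0.01 stands in the peak names. Control libraries, removal of duplicates and filters are not given in the sources used here, and read depth is unknown, so exact binomial intervals cover counting error only.

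Summits were chained and placed with Python 3.11.15, numpy 2.4.6, pandas 2.3.3 and scipy 1.17.1, and checked on simulated data. A region's score is the best summit of a replicate. Gene positions are those of RefSeq (GRCm38.p6, which mm10 names too), in a table without strand; strand and sequences came from the RefSeq promoter table, matched by gene ID for 17274 of 21631 genes. With 1 group of 2 samples no test was possible.

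The members and lists were chosen with earlier results of these data known. Named genes followed a rule: the best 12 by the worse rank, the best 6 head-to-head pairs, regions nearest a start, a 3′ end or the 1 kb limit, the widest 2, the largest score ratios, genes with several regions, promoters with an HNF4 motif, and the best of each list. Other names are marked, and values of some genes under the rule are not reported here. Alternatives were chaining distances, windows, a stricter score, each replicate alone, mean scores, pair distances, all genes and a looser motif. Exon and intron annotation was not used here.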

Additional observations from a re-analysis of the deposited data

How the results depend on the processing

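Of the settings tried, those that changed the definition of the regions moved their number most. Taking every summit of 1 replicate in place of shared regions gave 3641 to 3644 regions at 3946 to 3980 genes, a share at gene ends of 15.1% to 17.1%, 88.5% to 90.3% nearest a start and a median distance of 170 to 185.5 bp. Median scores were then 7.94 in replicate 1 and 7.62 in replicate 2. A window of 500 bp gave a share of 15.8%, 93.6% nearest a start and a median of 136 bp, and one of 2 kb gave 22.4%, 87.4% and 200.0 bp. Over all genes of the table, 87.6% were nearest a start and 12.1% served head-to-head pairs. The looser HNF4 motif gave 6.16%. Median scores were 10.7 in replicate 1 with chaining up to 50 bp, 9.70 and 9.26 with chaining up to 200 bp, and 11.0 and 10.4 with scores of 5 or more.

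The other values stayed within 1.5 times of a count, or within the 95% interval of a share or median. HNF4 in CpG-rich windows, 0.374%, was chosen after seeing the data. No paired analysis was possible because there is 1 group and no comparison between groups. Without replicate 1 no replicate 1 score exists, and likewise for replicate 2. Agreement of the replicates was computed once. Read depth, unknown here, limits what the weak summits show.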

Other observations

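Genes that make no protein also lay close to some of these regions. Of the 1701 regions, 184 (10.8%) were within 1 kb of an end of a lncRNA gene, against 325 of the 7478 other shared regions (4.35%). Small RNA genes were rarer: 9 regions (0.529%) lay within 1 kb of a miRNA gene end, against 11 other shared regions (0.147%), and 6 (0.353%) lay by a snoRNA gene, against 4 (0.0535%). tRNA genes were the reverse in share, with 4 (0.235%) against 27 (0.361%). The rule itself placed members at ends of protein-coding genes and the other regions away from them, so these shares are a description only.

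Some promoter windows of the table held shared regions that were no members. Midpoints of 105 other shared regions fell in a window of a protein-coding gene, although these midpoints lay over 1 kb from the outer ends of every protein-coding gene.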
